A study of Mus musculus with 12 samples.

Results

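Transcripts of 10 genes of the BCL2 family, chosen by symbol from the 54446 genes of the count table, were followed in mouse NIH3T3 fibroblasts in normoxia and hypoxia. The 10 comprised 4 pro-survival genes (Bcl2, Bcl2l1, Bcl2l2 and Mcl1), 2 effectors (Bax and Bak1) and 4 BH3-only genes (Bcl2l11, Bbc3, Pmaip1 and Bid). Each symbol matched exactly 1 row. Of the 10 genes, 9 passed the filter on low counts and were tested. The exception was Pmaip1, which encodes the BH3-only protein NOXA: 1 read was counted in a single wild-type normoxia sample and 0 in the other 11. A count of 0 allows up to 3 reads, or 0.0697 to 0.0983 CPM (counts scaled to library size) at these depths. That limit covers counting error only, and whether the way reads were assigned to the gene has a part in the count was not tested. Pmaip1 is thus given as not detected.

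BCL2 proteins decide whether the outer mitochondrial membrane stays intact. BAX and BAK, once activated, assemble into pores through which cytochrome c escapes and starts the caspase cascade. The pro-survival proteins BCL2, BCL-XL (Bcl2l1), BCL-W (Bcl2l2) and MCL1 hold the effectors and their activators in check. BH3-only proteins such as BIM (Bcl2l11), PUMA (Bbc3) and BID carry the stress signal, and several of them are controlled by transcription, whereas BID is cut into its active form by caspase 8. Transcript levels do not report on that cleavage, on protein stability or on death itself.

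RNA was sequenced from wild-type NIH3T3 cells, a mouse embryonic fibroblast line, and from ΔN-VEGF cells, the same line after biallelic removal of the coding sequence for N-VEGF, the amino-terminal part of a long VEGF isoform. The deletion was made with Cas9, a pair of guide RNAs and 2 donor cassettes, single resistant clones were picked, and the cassettes were later excised with VCre recombinase. The clone that was sequenced is not named in the sources used here, so the deletion cannot be told apart from other properties of a clone. Cells of each line spent 16 h in normoxia (air) or in hypoxia (below 0.2% oxygen), and each of the 4 groups held 3 samples. The labels do not say whether these were separate cultures, so p-values measure the spread between samples, which may be technical. In bulk RNA, fewer cells that express a gene and less RNA per cell cannot be told apart.

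Each sample held 30519052 to 43056690 counts on genes. Fibroblast identity was plain, with Vim at 4930 to 17900 CPM and Col1a2 at 1870 to 5590 CPM, while Epcam was at 0 in every sample and Ptprc did not exceed 0.0685 CPM. The 7 fibroblast markers gave 2 higher and 1 lower call in wild-type hypoxia, beside 36.5% of all genes. In ΔN-VEGF hypoxia they gave 4 and 2, beside 53.3%. Between the lines in hypoxia 3 were higher in ΔN-VEGF cells, beside 20.1%. Pdgfrb was at 59.4 to 130 CPM in wild-type normoxia and 25.8 to 30.5 CPM in wild-type hypoxia. Of the 9 epithelial, endothelial and immune markers Cd68 was at 2.84 to 6.68 CPM. The 3 endothelial markers did not move together. Cdh5 was at 1.28 to 3.83 CPM in normoxia, 5.38 to 7.29 CPM in wild-type hypoxia and 19.4 to 24.4 CPM in ΔN-VEGF hypoxia. Tie1 was at 1.04 to 1.56 and 1.81 to 1.92 CPM in wild-type normoxia and hypoxia and at 0.308 to 0.833 and 0.45 to 0.721 CPM in those of ΔN-VEGF, lower in ΔN-VEGF hypoxia than in wild-type hypoxia (log2 -1.7, adjusted p 0.0057). Pecam1 did not exceed 0.611 CPM. The part of these markers in the results was not tested. All 7 hypoxia check genes rose in both lines, by log2 2.01 to 5.38 for the wild type and 3.13 to 5.84 for ΔN-VEGF. Among them were Car9 (5.38 and 5.84), Slc2a1 (3.7 and 3.91), Ndrg1 (2.92 and 4.01) and Vegfa (2.01 and 3.59), and in normoxia Vegfa (-0.96, adjusted p 0.039) and Egln3 (-1.19, adjusted p 0.042) were lower in ΔN-VEGF cells. Both normoxia calls were lost without wild-type or ΔN-VEGF normoxia replicate 1 or 3, and that of Vegfa also without ΔN-VEGF replicate 2 (adjusted p 0.088 to 0.15). Vegfa, the edited gene, stood at 86.2, 39.4 and 82.6 CPM in wild-type normoxia, 37.3, 34.2 and 35.5 CPM in ΔN-VEGF normoxia, 272 to 291 CPM in wild-type hypoxia and 419 to 437 CPM in ΔN-VEGF hypoxia. Counts over the whole gene do not separate the deleted stretch and thus do not check the deletion. Replicate 2 of wild-type normoxia stood apart: across genes its median correlation with its group was 0.956, against 0.976 for both partners and 0.986 to 0.995 in the other groups. The members' values without it are given after the comparisons, and the counts of the pathway lists without it stand after those lists.

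The promoters of the genes called in both lines are shown first, since Bcl2 and Bid fell together and Bcl2l2 and Bbc3 rose together under hypoxia. The sequences are RefSeq's, on GRCm38.p6, and run 5′ to 3′ along the gene's own strand toward a RefSeq start site, ending earlier where an annotated exon of the gene begins. Capitals mark GCGTG or its reverse complement CACGC, a core letter pattern that hypoxia-inducible factor can read.

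Bcl2, chr1:106714291-106714540, minus strand: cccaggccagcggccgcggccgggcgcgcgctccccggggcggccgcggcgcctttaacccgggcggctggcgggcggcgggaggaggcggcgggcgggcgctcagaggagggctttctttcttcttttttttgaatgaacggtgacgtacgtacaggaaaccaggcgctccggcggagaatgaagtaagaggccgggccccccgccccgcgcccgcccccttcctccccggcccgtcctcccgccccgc
Bid, chr6:120916854-120917074, minus strand: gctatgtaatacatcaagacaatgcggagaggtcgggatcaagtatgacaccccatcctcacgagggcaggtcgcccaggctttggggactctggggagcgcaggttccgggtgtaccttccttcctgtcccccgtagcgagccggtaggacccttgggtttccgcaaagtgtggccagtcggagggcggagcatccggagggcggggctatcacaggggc
Bcl2l2, chr14:54883175-54883376, plus strand: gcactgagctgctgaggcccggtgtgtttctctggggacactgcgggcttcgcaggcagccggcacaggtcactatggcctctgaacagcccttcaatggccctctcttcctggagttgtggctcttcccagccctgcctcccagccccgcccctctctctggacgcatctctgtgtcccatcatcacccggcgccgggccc
Bbc3, chr7:16309333-16309582, plus strand: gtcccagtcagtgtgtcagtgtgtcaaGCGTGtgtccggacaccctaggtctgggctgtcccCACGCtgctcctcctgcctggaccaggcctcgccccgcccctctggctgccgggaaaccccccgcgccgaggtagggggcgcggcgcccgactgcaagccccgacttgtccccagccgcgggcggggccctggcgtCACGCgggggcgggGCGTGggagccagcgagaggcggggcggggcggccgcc

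The 250 bases before each RefSeq start were searched on both strands for ACGTG and GCGTG, and for GTAAACA, a pattern that forkhead factors such as FOXO3 can read. ACGTG also lies within the E-box CACGTG, so those matches are shared with that motif. Of the 9 tested members, all were matched in the promoter table, with 14 start sites in all. ACGTG was held by 2 of the 14 windows (in Bax and Bbc3), and by 16.6% of all 32851 windows. GCGTG was held by 5 of the 14 (in Bcl2l1, Bcl2l11 and Bbc3), and by 28.2% of all windows. GTAAACA was held by 2 of the 14 (in Bcl2l11 and Bbc3), and by 3.17% of all windows. The Bbc3 window printed above held 4 matches to GCGTG. It is the richest of the 3 windows of this gene, of which the others held 1 match each, and it lies within the annotated gene, before an internal start. For Bcl2, Bcl2l2, Mcl1, Bak1 and Bid none of these letters lay in the window, which says nothing of sites elsewhere.

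The pro-survival genes lie on GRCm38.p6 at chr1:106538178-106714274 (Bcl2, minus strand), chr2:152780668-152831728 (Bcl2l1, minus), chr14:54883377-54888234 (Bcl2l2, plus) and chr3:95658788-95663176 (Mcl1, plus). The effectors lie at chr7:45461697-45466898 (Bax, minus) and chr17:27019810-27029009 (Bak1, minus), and the BH3-only genes at chr2:128126038-128162547 (Bcl2l11, plus), chr7:16308393-16318205 (Bbc3, plus) and chr6:120891930-120916853 (Bid, minus). Counts were taken over whole genes, so isoforms such as the long and short forms of BCL-X were not separated.

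Several members share exonic bases with other annotated genes, where reads may be counted to neither or to the other. These are Bcl2l2 (594 bases with Gm20521, same strand), Bcl2 (558 with D630008O14Rik, opposite strand) and Bax (192 with Gm45808, same strand), besides Bak1 and Bid, described with their values. Gm20521 and Gm45808 had 0 counts in every sample and D630008O14Rik at most 1. Reads on the shared bases were not measured, so the levels of these 5 members per length are uncertain.

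Levels between genes were compared per length, as CPM per kilobase of annotated exon. In ΔN-VEGF normoxia the order ran from Mcl1 (42.3 ± 1.49, SD, n = 3) through Bax (32 ± 4.07) and Bak1 (31.3 ± 2.27) to Bcl2l1 (11.7 ± 1.28), Bcl2l2 (4.05 ± 0.164), Bbc3 (3.36 ± 0.903), Bid (2.18 ± 0.583), Bcl2l11 (1.5 ± 0.272) and Bcl2 (0.746 ± 0.0181). Bax and Bak1 overlapped in that order, as did Bcl2l2 with Bbc3 and Bbc3 with Bid. Mcl1 led and Bcl2 was the lowest tested member in all 4 groups. In normoxia Bbc3 and Bcl2l2 overlapped in both lines, and in wild-type replicates 1 and 3 Bbc3 was the higher of them (5.02 and 5.22 against 4.46 and 5.12 CPM per kilobase), unlike replicate 2 (2.28 against 4.64). In hypoxia Bbc3 was above Bcl2l2, at 9.01 ± 0.94 against 6.95 ± 0.466 CPM per kilobase in wild-type cells and 10.7 ± 1.28 against 8.47 ± 0.635 in ΔN-VEGF cells, with no overlap of the samples in either line. Bak1 and Bax, which overlapped in both normoxia groups, separated in hypoxia: Bax was at 33.7 ± 3.15 and Bak1 at 21.2 ± 1.58 CPM per kilobase in wild-type cells, and 29 ± 0.569 and 18.3 ± 0.442 in ΔN-VEGF cells.

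**Figure D1:**
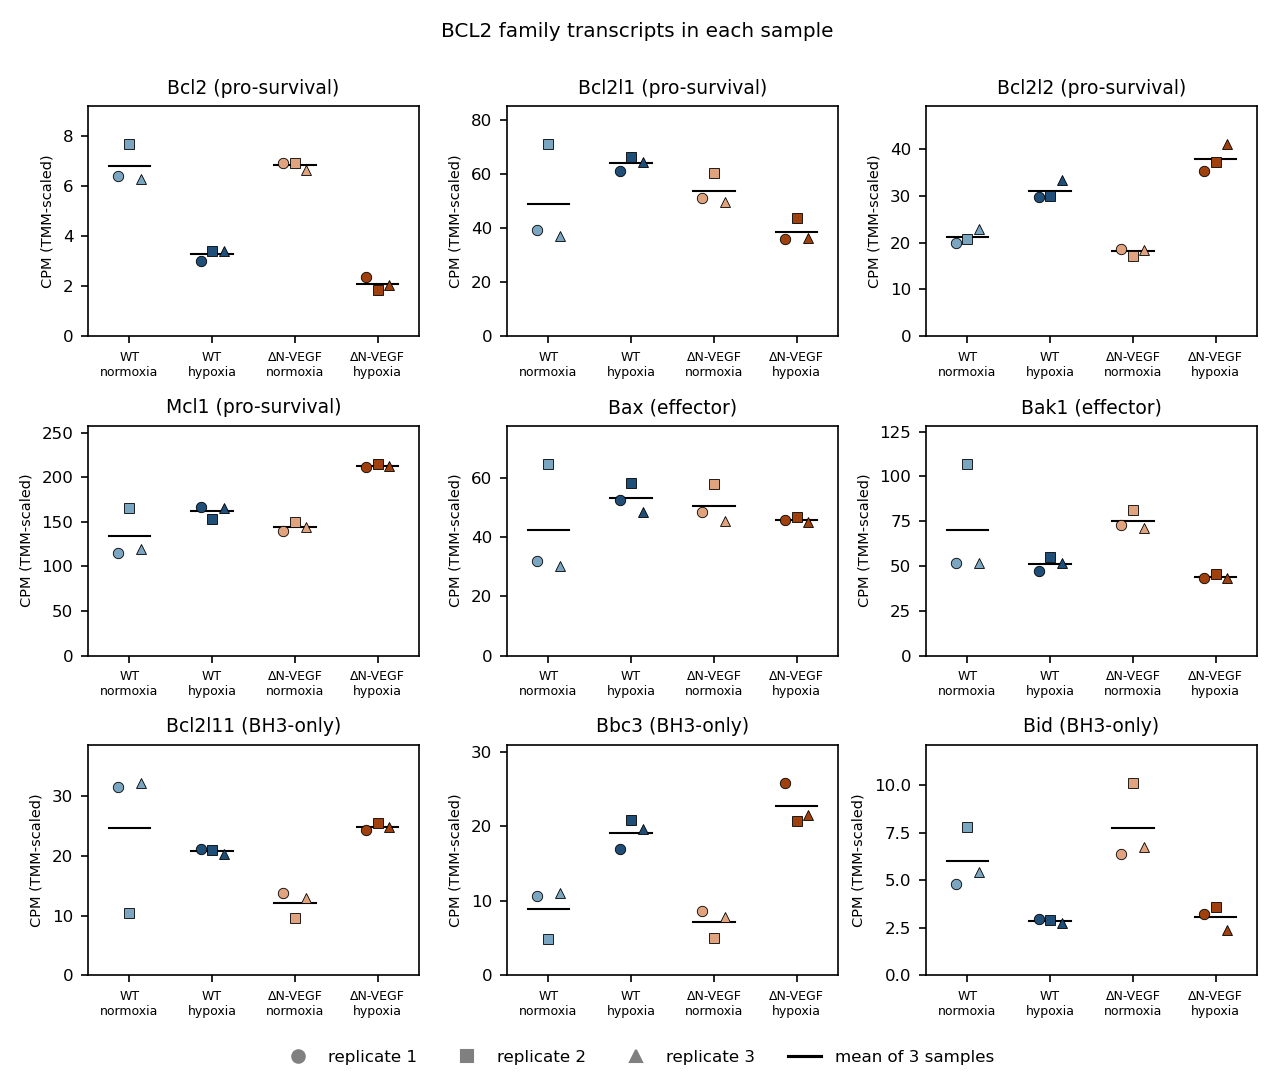
Level of each tested BCL2 family gene (CPM after TMM scaling, linear axes from 0) in the 12 samples, by group; points are samples, shapes are replicate numbers and bars are means of 3 samples. Bcl2 and Bid are lower and Bcl2l2 and Bbc3 higher in hypoxia in both lines without overlap, and replicate 2 of wild-type normoxia lies away from its partners for Bcl2l1, Mcl1, Bax, Bak1, Bcl2l11 and Bbc3.

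Which members respond to hypoxia in wild-type cells was asked first. Hypoxia raised Bcl2l2 and Bbc3 and lowered Bcl2 and Bid, 4 of the 9 tested members at an adjusted p below 0.05. Over all 14724 tested genes, 18.2% were called higher and 18.3% lower in this comparison. The members' median log2 fold change was 0.28, against -0.07 over all genes. With a fold of at least 2 also required, 3 members remained (Bcl2, Bbc3 and Bid), beside 15.7% of all genes. In ΔN-VEGF cells 7 of 9 members were called: Bcl2l2, Mcl1, Bcl2l11 and Bbc3 rose, and Bcl2, Bak1 and Bid fell. There the background was 26.9% higher and 26.4% lower, and the members' median was -0.14 against -0.01 over all genes. The rule of at least 2-fold left 5 members (Bcl2, Bcl2l2, Bcl2l11, Bbc3 and Bid), beside 27.2% of all genes.

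These calls depend in part on the scaling. With total counts in place of TMM factors, which correct for library composition, the median log2 change of all genes was -0.3 rather than -0.07 for the wild type and -0.41 rather than -0.01 for ΔN-VEGF. The share of called genes that were higher was 28.2% rather than 49.8%, and 25.6% rather than 50.5%. Among the members the split went from 2 higher and 2 lower to 1 and 3 in wild-type cells, and from 4 and 3 to 2 and 5 in ΔN-VEGF cells. All log2 changes below are from TMM scaling, and a member is said to have lost its call where total counts removed it.

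Among the pro-survival genes Bcl2 fell most. Its levels were 6.39, 7.66 and 6.3 CPM in wild-type normoxia and 3.01, 3.42 and 3.41 CPM in wild-type hypoxia. The ΔN-VEGF samples held 6.91, 6.94 and 6.64 CPM in normoxia and 2.38, 1.83 and 2.05 CPM in hypoxia. Every hypoxia sample thus lay below every normoxia sample in both lines. The log2 change was -1.05 ± 0.14 (SE) in wild-type cells (adjusted p 0.00018), a 2.07-fold fall, and -1.71 ± 0.15 in ΔN-VEGF cells (adjusted p 3.5e-06), a 3.27-fold fall. Both calls held under all 16 alternatives run for each.

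Bcl2l2, which encodes BCL-W, moved the other way. Wild-type cells had 19.9, 20.7 and 22.8 CPM in normoxia and 29.6, 30 and 33.4 CPM in hypoxia. ΔN-VEGF cells had 18.6, 17.2 and 18.5 CPM in normoxia and 35.3, 37.2 and 40.9 CPM in hypoxia. The groups did not overlap in either line. Its log2 fold change was 0.55 ± 0.10 in wild-type cells (adjusted p 0.0012) and 1.06 ± 0.10 in ΔN-VEGF cells (adjusted p 6.6e-06). The wild-type call was lost in the 6 samples with a replicate block (0.53, adjusted p 0.064).

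Mcl1, a short-lived protein's gene and the most abundant member, was at 115, 166 and 120 CPM in wild-type normoxia and 167, 153 and 166 CPM in wild-type hypoxia. The ΔN-VEGF samples were at 140, 150 and 144 CPM in normoxia and 211, 215 and 213 CPM in hypoxia. The wild-type groups overlapped through replicate 2 of normoxia, whereas the ΔN-VEGF groups did not overlap. The rise was called in ΔN-VEGF cells (log2 0.56 ± 0.13, adjusted p 0.0031) and not in wild-type cells (0.28 ± 0.12, adjusted p 0.11). Total counts in place of TMM factors removed the ΔN-VEGF call (0.16, adjusted p 0.15). Bcl2l1, the gene of BCL-XL, was at 39.2, 70.9 and 37.1 CPM in wild-type normoxia and 61.2, 66.4 and 64.4 CPM in wild-type hypoxia, a log2 change of 0.38 ± 0.21 (adjusted p 0.18). In ΔN-VEGF cells it was at 51.3, 60.5 and 49.7 CPM in normoxia and 35.8, 43.8 and 36.5 CPM in hypoxia. These groups did not overlap, but the change of -0.48 ± 0.21 missed the threshold (adjusted p 0.082); it passed with total counts (-0.88, adjusted p 8e-04), no filter (-0.57, adjusted p 0.034) and in 4 other alternatives.

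The effectors gave 1 call, the fall of Bak1 in ΔN-VEGF cells. Bax was at 31.9, 64.6 and 30.2 CPM in wild-type normoxia and 52.4, 58.3 and 48.5 CPM in hypoxia, and at 48.4, 57.7 and 45.3 CPM in ΔN-VEGF normoxia and 45.6, 46.6 and 44.9 CPM in hypoxia. Both pairs of groups overlapped, and the log2 changes of 0.33 (95% interval -0.21 to 0.86) and -0.14 (-0.68 to 0.39) were not called; with total counts the ΔN-VEGF change was -0.54 (adjusted p 0.03). Bak1 was at 51.7, 107 and 51.6 CPM in wild-type normoxia and 47.2, 54.8 and 51.5 CPM in hypoxia, overlapping groups with a change of -0.46 ± 0.24 (adjusted p 0.15); with total counts it was -0.64 (adjusted p 0.015). In ΔN-VEGF cells Bak1 fell from 72.7, 81.5 and 71.5 CPM to 43.6, 45.3 and 43.3 CPM with no overlap (-0.77 ± 0.24, adjusted p 0.017). That call was lost without ΔN-VEGF normoxia replicate 2 (-0.72, adjusted p 0.054) and without ΔN-VEGF hypoxia replicate 1 or 3 (-0.77 and adjusted p 0.053 in each). Bak1 shares 437 exonic bases with Ggnbp1 on the opposite strand, and the library kit does not mark strand. Ggnbp1 had 35 to 135 counts per sample, and reads on the shared bases were not measured.

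Of the BH3-only genes Bbc3, which encodes PUMA, rose in both lines. It was at 10.7, 4.85 and 11.1 CPM in wild-type normoxia and 16.9, 20.9 and 19.6 CPM in wild-type hypoxia, and at 8.61, 4.97 and 7.84 CPM in ΔN-VEGF normoxia and 25.8, 20.7 and 21.6 CPM in ΔN-VEGF hypoxia. The groups were separate in both lines, and replicate 2 was the low sample in both normoxia groups. Bbc3 was 2.16-fold higher in wild-type hypoxia (log2 1.11 ± 0.29, adjusted p 0.011) and 3.17-fold higher in ΔN-VEGF hypoxia (1.67 ± 0.29, adjusted p 0.00064). The wild-type call was lost with total counts (0.85, adjusted p 0.053) and in the fit of the 6 samples without a block (1.08, adjusted p 0.058) and with it (1.16, adjusted p 0.11).

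Bcl2l11, the gene of BIM, had log2 changes of opposite sign in the lines, with no call in wild-type cells. In wild-type cells it was at 31.5, 10.5 and 32.2 CPM in normoxia and 21.2, 21 and 20.3 CPM in hypoxia, groups that overlapped only through replicate 2 (-0.25 ± 0.32, adjusted p 0.58). In ΔN-VEGF cells it rose from 13.7, 9.59 and 12.9 CPM to 24.3, 25.6 and 24.9 CPM, with no overlap (1.05 ± 0.32, adjusted p 0.019). The rise lost its call without ΔN-VEGF normoxia replicate 2 (0.90, adjusted p 0.07) and with total counts (0.64, adjusted p 0.15). Bcl2l1 and Bax also differed in sign between the lines, with no call in either.

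Bid fell in both lines. Its levels were 4.82, 7.8 and 5.41 CPM in wild-type normoxia and 2.96, 2.91 and 2.73 CPM in hypoxia, and 6.35, 10.1 and 6.74 CPM in ΔN-VEGF normoxia and 3.2, 3.57 and 2.39 CPM in hypoxia. Hypoxia and normoxia samples did not overlap in either line. The log2 changes were -1.07 ± 0.24 (adjusted p 0.005) and -1.34 ± 0.24 (adjusted p 0.00075). The wild-type call was lost in the 6 samples with a replicate block (-1.06, adjusted p 0.052). Bid shares 628 exonic bases with Bcl2l13 on the opposite strand. Bcl2l13 had 1532 to 3711 counts per sample, and reads on the shared bases cannot be assigned to either gene with this kit, so the level of Bid is uncertain.

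**Figure D2:**
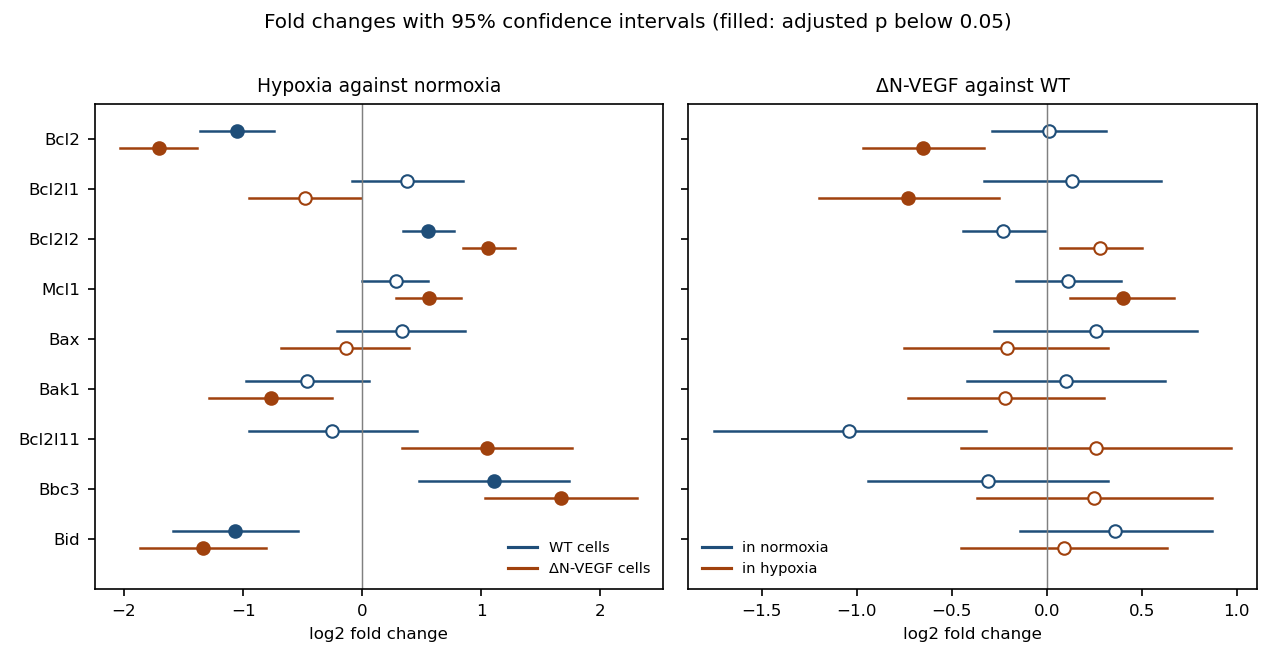
Log2 fold changes of the 9 tested members with 95% confidence intervals, hypoxia against normoxia in each line (left) and ΔN-VEGF against wild type (WT) in each condition (right); filled points have an adjusted p below 0.05. Hypoxia gives 4 filled points for the wild type and 7 for ΔN-VEGF cells, and the lines give 0 in normoxia and 3 in hypoxia.

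Whether the lines differ at rest was asked in normoxia, where no member was called by edgeR's quasi-likelihood test. Over all genes 1.39% were called higher in ΔN-VEGF cells and 2.97% lower, and 2.17% were called with at least 2-fold. At an unadjusted p below 0.05 there were 2 members (Bcl2l2 and Bcl2l11), and 19% of all genes. DESeq2's Wald test called 1, beside 8.16% of all genes: Bcl2l11 (-1.03, adjusted p 0.031), which edgeR placed at -1.04 ± 0.32 (adjusted p 0.1). Bcl2l2 was lower in every ΔN-VEGF sample (-0.23 ± 0.10), with an adjusted p of 0.24. For Bcl2 the difference was 0.01 (95% interval -0.29 to 0.31) and its sign changed with total counts (-0.03).

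In hypoxia 3 members were called between the lines: Mcl1 was higher and Bcl2 and Bcl2l1 were lower in ΔN-VEGF cells. The background was 10.8% higher and 9.36% lower. None of the 3 reached 2-fold, a rule that 6.81% of all genes met. Bcl2 was at 1.83 to 2.38 CPM in ΔN-VEGF hypoxia against 3.01 to 3.42 CPM in wild-type hypoxia, 1.57-fold lower (log2 -0.65 ± 0.15, adjusted p 0.011). Bcl2l1 was at 35.8 to 43.8 against 61.2 to 66.4 CPM, 1.65-fold lower (-0.73 ± 0.21, adjusted p 0.036). Mcl1 was at 211 to 215 against 153 to 167 CPM, 1.32-fold higher (0.40 ± 0.13, adjusted p 0.046). The samples of the lines did not overlap for any of these genes, but neither did they for the uncalled Bcl2l2, Bax, Bak1 and Bcl2l11 (adjusted p 0.062 to 0.63). The share of all genes without overlap was not computed. The 3 calls are close to the threshold: those of Mcl1 and Bcl2l1 were lost without any 1 of the 6 hypoxia libraries (adjusted p 0.12 to 0.14 and 0.065 to 0.13), and that of Bcl2 without ΔN-VEGF hypoxia replicate 2 (-0.57, adjusted p 0.054). Mcl1 also lost its call with total counts (0.18, adjusted p 0.16), a scaling that turned the share of called genes that were higher from 53.5% to 17.1%, and with no filter (0.39, adjusted p 0.097). When the model held only these 6 samples, 8 of 9 members were called, 4 higher (Bcl2l2, Mcl1, Bcl2l11 and Bbc3) and 4 lower (Bcl2, Bcl2l1, Bax and Bak1), with log2 values close to those above (Mcl1 0.39, Bcl2l1 -0.73, Bcl2 -0.65) and lower adjusted p. In that fit 57% of all genes were called, against 20.1% with 12 samples. Bcl2l2, at 35.3 to 40.9 against 29.6 to 33.4 CPM, missed the threshold in edgeR's 12-sample fit (0.28 ± 0.10, adjusted p 0.062). It passed there with the replicate block (0.28, adjusted p 0.036) and with DESeq2 (0.30, adjusted p 0.016), which called 4 members in this comparison, beside 21.8% of all genes.

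The test of whether the response to hypoxia itself differed between the lines (the interaction) called no member with edgeR, beside 2.21% of genes called higher and 1.15% lower, and 1.56% with at least 2-fold. At an unadjusted p below 0.05 there were 4 members and 21% of all genes. The values were 1.29 ± 0.46 for Bcl2l11 (adjusted p 0.14), -0.86 ± 0.30 for Bcl2l1 (0.14), -0.66 ± 0.20 for Bcl2 (0.093) and 0.51 ± 0.14 for Bcl2l2 (0.068), where a positive value is a greater rise or smaller fall in ΔN-VEGF cells. DESeq2 called 2 members, Bcl2l2 (0.52, adjusted p 0.0051) and Bcl2 (-0.65, adjusted p 0.037), beside 10.3% of all genes. Total counts gave 2 as well, Bcl2 (-0.84, adjusted p 0.029) and Bcl2l1 (-1.07, adjusted p 0.028), beside 6.13% of all genes. That scaling moved the median of all genes to -0.15 from 0.03 and the share of called genes that were higher to 16.3% from 65.9%.

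Leaving out replicate 2 of wild-type normoxia changed the calls in all 3 comparisons that use it. In the comparisons that do not use it the count of members also went from 3 to 5 between the lines in hypoxia (42.4% of all genes called) and from 7 to 8 in ΔN-VEGF hypoxia (67.1%). The number of genes that passed the filter went from 14724 to 15145. It held 107 CPM of Bak1 where its partners held 51.7 and 51.6 CPM, 64.6 CPM of Bax against 31.9 and 30.2 CPM, and 10.5 CPM of Bcl2l11 against 31.5 and 32.2 CPM. For 8 of the 9 tested members, replicate 2 was the extreme sample on the same side in both normoxia groups, the highest for 6 and the lowest for 2 (Bcl2l11 and Bbc3). The share of all genes with this pattern was not computed. Across all tested genes these 2 samples also deviated together (r = 0.5), so the pattern is not particular to the members. Without this library 8 members were called in wild-type hypoxia, 5 higher and 3 lower, beside 27.1% of genes higher and 26.9% lower. Bax rose by 0.78 ± 0.11 (adjusted p 5.2e-05), Bcl2l1 by 0.75 ± 0.11 (6.8e-05) and Mcl1 by 0.47 ± 0.07 (7.7e-05), Bcl2l11 changed by -0.61 ± 0.12 (0.00076), and Bak1 stood at -0.01 ± 0.08 (0.93). Bcl2 (-0.95), Bcl2l2 (0.54), Bbc3 (0.82) and Bid (-0.83) stayed called.

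Between the lines in normoxia, leaving the library out gave 7 called members in place of 0, beside 25.7% of genes higher and 23.2% lower. Bax (0.71 ± 0.11, adjusted p 0.00019), Bid (0.61 ± 0.20, 0.023), Bak1 (0.56 ± 0.08, 2e-04), Bcl2l1 (0.51 ± 0.11, 0.0018) and Mcl1 (0.31 ± 0.07, 0.0023) were then higher in ΔN-VEGF cells, and Bcl2l11 (-1.39 ± 0.12, 3.9e-06) and Bbc3 (-0.59 ± 0.18, 0.018) lower. In the interaction it gave 7 in place of 0, beside 21.4% of genes higher and 23% lower: Bcl2l11 (1.64), Bbc3 (0.84) and Bcl2l2 (0.51) were higher and Bcl2l1 (-1.24), Bax (-0.93), Bcl2 (-0.77) and Bak1 (-0.77) lower. With normoxia replicate 2 of both lines left out, the same 7 members were called in normoxia, beside 53.6% of all genes. The differences were then 0.60 for Bax (adjusted p 2e-06), 0.49 for Bak1, 0.42 for Bcl2l1, 0.36 for Bid (0.021), 0.28 for Mcl1, -0.39 for Bbc3 (0.0081) and -1.25 for Bcl2l11 (4.9e-11). The interaction then called the 7 named just above, beside 52.8% of all genes, at 1.5 for Bcl2l11, 0.64 for Bbc3, 0.48 for Bcl2l2, -0.71 for Bak1, -0.75 for Bcl2, -0.82 for Bax and -1.14 for Bcl2l1. The labels give no reason to drop either library. What sets wild-type normoxia replicate 2 apart was not tested.

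**Figure D3:**
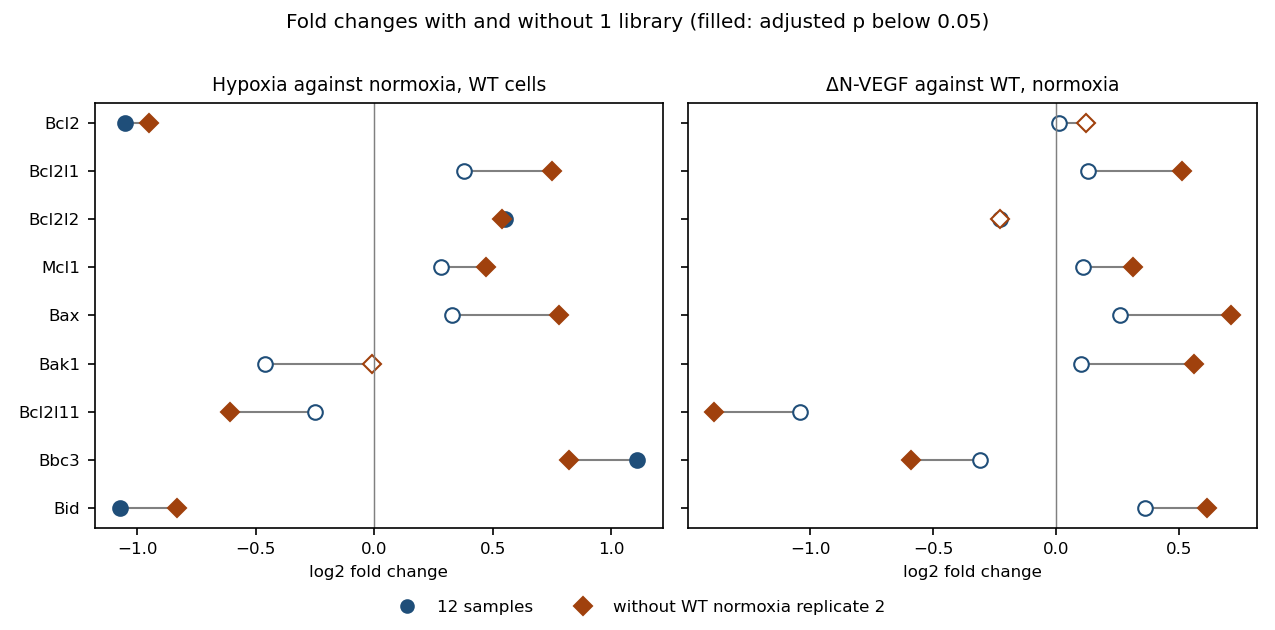
Log2 fold changes of the 9 tested members from all 12 samples (circles) and without wild-type normoxia replicate 2 (diamonds), for hypoxia in wild-type (WT) cells (left) and for ΔN-VEGF against wild type in normoxia (right); filled symbols have an adjusted p below 0.05. The filled symbols go from 4 to 8 on the left and from 0 to 7 on the right, while Bcl2 and Bcl2l2 move little.

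Ratios of counts within a sample do not depend on the scaling between libraries. The ratio of Bax to Bcl2 counts was 4.99, 8.43 and 4.8 in wild-type normoxia and 17.4, 17 and 14.2 in wild-type hypoxia. For ΔN-VEGF samples it was 7, 8.31 and 6.83 in normoxia and 19.2, 25.4 and 21.8 in hypoxia. The hypoxia samples were above the normoxia samples in both lines, and hypoxic ΔN-VEGF cells above hypoxic wild-type cells. The ratio of Bbc3 to Bcl2 was 1.67, 0.633 and 1.76 in wild-type normoxia, 5.63, 6.09 and 5.75 in wild-type hypoxia, 1.25, 0.717 and 1.18 in ΔN-VEGF normoxia and 10.8, 11.3 and 10.5 in ΔN-VEGF hypoxia. Here too the 3 hypoxic ΔN-VEGF samples were the highest. Bbc3 to Mcl1 gave another order: it was 0.102 to 0.136 in wild-type hypoxia and 0.0961 to 0.122 in ΔN-VEGF hypoxia, which overlapped, and 0.0293 to 0.0924 and 0.0331 to 0.0615 in normoxia. Bak1 to Bcl2 was 15.1 to 16 in wild-type hypoxia and 18.3 to 24.7 in ΔN-VEGF hypoxia, and 8.09 to 14 and 10.5 to 11.7 in normoxia. Bax to Bcl2l1 was 0.753 to 0.878 in wild-type hypoxia and 1.06 to 1.27 in ΔN-VEGF hypoxia, and 0.815 to 0.911 and 0.913 to 0.953 in normoxia. The ratios to Bcl2 share a denominator that held 57 to 76 counts in hypoxic ΔN-VEGF samples, so they are not independent. In hypoxia Bax was at 44.9 to 46.6 CPM in ΔN-VEGF cells against 48.5 to 58.3 CPM in wild-type cells. Mcl1 (211 to 215 against 153 to 167 CPM) and Bcl2l2 (35.3 to 40.9 against 29.6 to 33.4 CPM) were higher there. Bax relative to either was thus lower in hypoxic ΔN-VEGF cells, and the order depends on the denominator. The ratios were given no test, and with 3 against 3 samples an exact permutation test cannot go below 0.1.

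**Figure D4:**
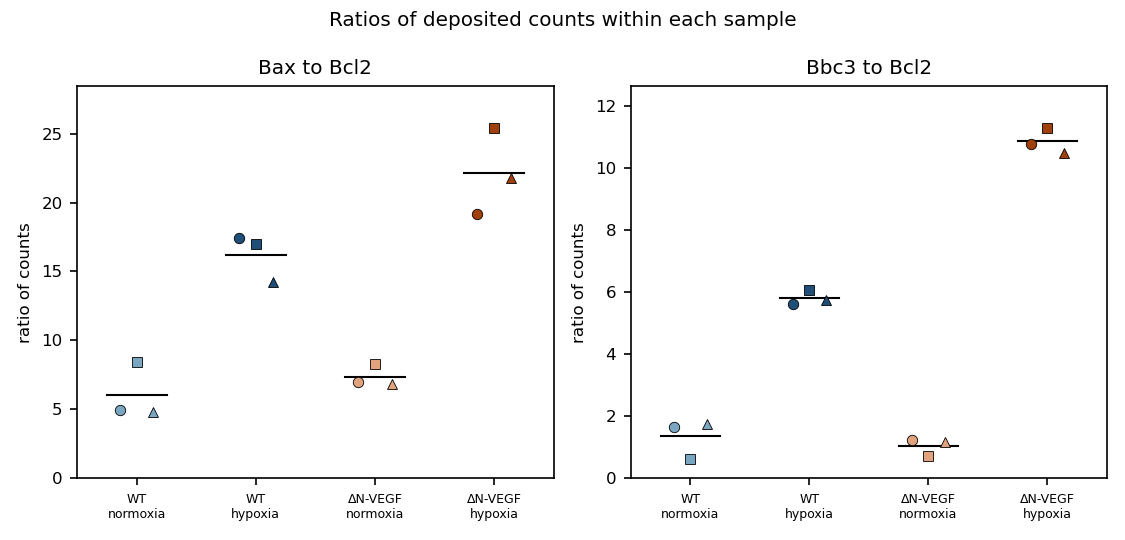
Ratio of deposited counts of Bax to Bcl2 (left) and Bbc3 to Bcl2 (right) in each of the 12 samples, by group, on linear axes from 0; bars are means of 3 samples. The hypoxic ΔN-VEGF samples sit highest in both panels, at 19.2 to 25.4 and 10.5 to 11.3, and both panels share Bcl2 as denominator.

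Across the 12 samples, Bbc3 followed Fosl2 (r = 0.993 for log2 CPM), Sspo (0.99) and C030037D09Rik (0.99) most closely among the 14723 other tested genes, and Bcl2 followed Gnpda1 (0.993), Cep78 (0.991) and Lzts3 (0.99). Among the members, Bbc3 ran opposite to Bid (-0.95), Bak1 (-0.91) and Bcl2 (-0.89), and Bcl2 opposite to Bcl2l2 (-0.96). The samples form 4 groups and share the contrast of oxygen, so these values describe the grouping and carry no p.

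Other genes of the pathway were taken from fixed lists. Their counts under hypoxia stand beside a background of 18.2% of all genes higher and 18.3% lower for the wild type and 26.9% and 26.4% for ΔN-VEGF, and their medians beside -0.07 and -0.01 over all genes. Of 15 other BCL2 family genes 7 were tested, and in each line 2 rose and 2 fell, with medians of -0.06 (wild type) and -0.57 (ΔN-VEGF). Bnip3 and Bnip3l, BH3-type genes best known for mitophagy, made up the rises. Bnip3 went from 13.7, 15.5 and 13.7 CPM to 327, 290 and 322 CPM in wild-type cells (log2 4.45 ± 0.11, adjusted p 1.7e-09) and from 19.5, 16.3 and 18.6 CPM to 421, 420 and 425 CPM in ΔN-VEGF cells (4.54 ± 0.11, 6.4e-10). Bnip3l rose by 2.74 and 3.24, and between the lines in hypoxia Bnip3 (0.43, adjusted p 0.0087) and Bnip3l (0.52, adjusted p 0.037) were higher in ΔN-VEGF cells. Those differences between the lines lost their calls with total counts (0.21 and 0.30), and that of Bnip3l without any 1 of the 6 hypoxia libraries (adjusted p 0.073 to 0.12). Bcl2l12 fell in both lines (-0.57 and -0.75). Bmf, a BH3-only gene, was at 31.3, 2.67 and 31.5 CPM in wild-type normoxia and 4.01 to 4.33 CPM in hypoxia (-2.38 ± 0.75, adjusted p 0.028). That call was lost without wild-type normoxia replicate 1 or 3 or any wild-type hypoxia library (adjusted p 0.072 to 0.087), and without wild-type normoxia replicate 2 the change was -2.89 ± 0.4 (adjusted p 5.4e-05). In ΔN-VEGF cells Bmf was at 12.5, 2.87 and 12.5 CPM in normoxia and 4.2 to 5.04 CPM in hypoxia, with no call (-0.98 ± 0.73, adjusted p 0.28). Without normoxia replicate 2 of both lines that change was called (-1.42, adjusted p 1.6e-11). With all 12 samples no gene of this list was called by edgeR between the lines in normoxia or in the interaction, beside 4.36% and 3.36% of all genes.

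All 14 genes that act after the mitochondrial pore opens were tested. In wild-type hypoxia 3 rose and 4 fell (median -0.26), and in ΔN-VEGF hypoxia 5 rose and 6 fell (median -0.15). Cycs, which encodes cytochrome c, changed by -1.49 ± 0.45 (adjusted p 0.023) and -2.72 ± 0.47 (adjusted p 0.00059), and Htra2, a mitochondrial protease, by -1.37 and -1.90. In wild-type cells Cycs was at 22.1, 95.9 and 26 CPM in normoxia and 16.1 to 18.2 CPM in hypoxia, so that replicate 2 set most of the change. Without that library it was -0.49 ± 0.13 (adjusted p 0.008), and without any 1 wild-type hypoxia library the call was lost (adjusted p 0.064 to 0.078). Casp6, an executioner caspase, rose by 0.92 and 2.02. Birc5, the gene of survivin and a marker of dividing cells, fell in ΔN-VEGF cells (-2.31 ± 0.56, adjusted p 0.0049). Its wild-type change was -1 ± 0.53 (adjusted p 0.17), a value that became 0.34 (adjusted p 0.033) without wild-type normoxia replicate 2 and -1.39 (adjusted p 0.047) without replicate 1. Between the lines, with all 12 samples, 0 genes of this list were called in normoxia (4.36% of all genes) and 1 in hypoxia (20.1% of all genes), Casp6 (0.74 ± 0.14, adjusted p 0.0045; 0.52 and 0.051 with total counts).

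In the death receptor arm, which leads to BID through caspase 8, 4 of 8 genes rose in wild-type hypoxia and 0 fell (median 0.20), and in ΔN-VEGF hypoxia 3 rose and 1 fell (median 0.26). Cflar, a caspase 8 inhibitor, rose by 0.60 and 0.97, Tradd by 0.53 and 0.60 and Ripk1 by 0.38 and 0.42. The calls of Tradd and Ripk1 were lost in both lines with total counts. Casp8 was the gene that fell in ΔN-VEGF cells (-0.94 ± 0.12, adjusted p 7.9e-05), and it stood at -0.14 ± 0.12 in wild-type cells (adjusted p 0.37; -0.36 and 0.014 with total counts). Between the lines in hypoxia Casp8 was lower (-0.68, adjusted p 0.0036) and Fas higher in ΔN-VEGF cells (0.97, adjusted p 0.039), the latter lost without any 1 of the 6 libraries (adjusted p 0.089 to 0.11) and with total counts. In normoxia Tnfrsf10b was higher (0.41, adjusted p 0.048), a call lost without any 1 normoxia library other than wild-type replicate 2 (adjusted p 0.12 to 0.18).

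Of 8 transcription factors known to act on BH3-only genes 7 were tested, and the same 4 rose in each line: Ddit3 (log2 2.54 and 4.37), Foxo3 (1.65 and 2.86), Jun (1.32 and 1.11) and Atf4 (0.99 and 1.54). With all 12 samples no gene of the list fell under hypoxia. Medians were 0.99 for the wild type and 1.11 for ΔN-VEGF. Ddit3 encodes CHOP, a factor of the endoplasmic reticulum stress response that ATF4 induces and that can act on Bcl2l11 and Bbc3. It was at 35.6, 12.3 and 32 CPM in wild-type normoxia and 163, 148 and 154 CPM in wild-type hypoxia, and at 14.1, 13.3 and 14.3 CPM in ΔN-VEGF normoxia and 301, 276 and 282 CPM in ΔN-VEGF hypoxia. The groups of each line were far apart, and the hypoxic samples of the lines did not overlap. Between the lines Ddit3 was the only gene of the list called with all 12 samples, higher in ΔN-VEGF hypoxia (0.89 ± 0.28, adjusted p 0.049) and higher in the interaction (1.83 ± 0.40, adjusted p 0.037). Over all genes 20.1% were called between the lines in hypoxia and 3.36% in the interaction. The difference in hypoxia lost its call without any 1 of the 6 hypoxia libraries (adjusted p 0.1 to 0.13), with total counts (0.67, adjusted p 0.15) and with at least 10 counts in every sample (0.88, adjusted p 0.055).

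Of 3 ubiquitin enzymes that set MCL1 turnover, 2 fell in each line, namely Huwe1 (-0.43 and -0.32), a ligase for MCL1, and Fbxw7 (-0.39 and -0.37), the substrate receptor of another. The calls of Fbxw7 were lost without wild-type normoxia replicate 1 or 3 or wild-type hypoxia replicate 2 or 3 (adjusted p 0.06 to 0.15) in one line, and without ΔN-VEGF normoxia replicate 1 or 3 or ΔN-VEGF hypoxia replicate 1 or 2 (0.077 to 0.11) in the other. The 2 lines' medians were -0.39 and -0.32.

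Without wild-type normoxia replicate 2, calls in the lists mostly grew in number as they did among the members and over all genes. The counts did not change for the genes acting after the pore in ΔN-VEGF hypoxia. Nor did they change for the ubiquitin enzymes under hypoxia in either line or in the interaction. The genes named for these counts lie outside the naming rule and were chosen after their values were seen. Under hypoxia, beside 54% of all genes called in the wild type and 67.1% in ΔN-VEGF, the other BCL2 family genes gave 3 higher and 2 lower in the wild type and 2 and 4 in ΔN-VEGF, the genes acting after the pore 4 and 6 and then 5 and 6, the death receptor arm 4 and 1 in each line, the transcription factors 5 and 1 and then 4 and 1, and the ubiquitin enzymes 0 and 2 in each line. Between the lines in normoxia, beside 25.7% of all genes higher and 23.2% lower, the other BCL2 family genes gave 2 higher (Bok, and Bnip3 at 0.42, adjusted p 0.0018) and 1 lower (Bmf at -1.74, adjusted p 0.0023). The genes acting after the pore gave 5 higher, among them Birc5 (1.45, adjusted p 4.2e-06) and Cycs (1.36, adjusted p 1.3e-05), and 3 lower (Casp6, Xiap and Birc2). Fas, Tnfrsf10b, Fadd and Ripk1 of the death receptor arm were higher. Among the transcription factors Trp53 and E2f1 were higher, and Foxo3 (-0.62, adjusted p 0.00014) and Ddit3 (-1.27, adjusted p 3.6e-07) lower, and Fbxw7 was lower (-0.39, adjusted p 0.019). In hypoxia between the lines, beside 42.4% of all genes, the counts were 2 higher and 2 lower, 4 and 5, 5 and 1, 4 and 2, and 1 and 1 for the 5 lists in the same order. Foxo3 (0.96, adjusted p 1.7e-06) and Atf4 (0.33, adjusted p 0.00095) were then higher in ΔN-VEGF cells, and Birc5 (-1.21) and Cycs (-0.88) lower. In the interaction, beside 21.4% of all genes higher and 23% lower, they were 2 and 2, 3 and 5, 1 and 1, 4 and 3, and 0 and 0. Foxo3 (1.58, adjusted p 9.7e-07), Ddit3 (2.16, adjusted p 1e-07), Bnip3l (0.67, adjusted p 0.00039) and Bmf (1.9, adjusted p 0.014) were among those higher. Birc5 (-2.65, adjusted p 3.3e-07), Cycs (-2.24, adjusted p 2e-06), Casp8 (-0.92, adjusted p 2e-04) and Htra2 (-0.81, adjusted p 0.00017) were among those lower.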

How the data were processed

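RNA-seq counts of 12 samples were used. The library kit named in the labels, TruSeq RNA v2, does not mark strand. The authors trimmed the reads (cutadapt 1.10), mapped them with TopHat2 2.1.0 and deposited a raw count per gene from HTSeq 0.6.1, with no scaling. Groups and replicate numbers came from the labels. The members and gene lists were chosen with earlier results of these data known.

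From the counts, edgeR 4.0.16 in R 4.3.3 (limma 3.58.1) fitted 1 mean per group over the 12 samples after filterByExpr, with TMM factors (0.825 to 1.21), its quasi-likelihood test, and p-values adjusted by Benjamini-Hochberg across 14724 genes. A gene was called at an adjusted p below 0.05, and the standard error of a log2 change came from its F value. CPM used TMM-scaled totals, correlations log2 CPM with a prior count of 2, and lengths the exons of GENCODE vM21 on GRCm38.p6. Alternatives were DESeq2 1.42.0, RLE factors, total counts, no filter, a minimum of 10 counts per sample, a fold of at least 2, the 6 samples of a comparison, a replicate block, each sample left out, and normoxia replicate 2 of both lines left out. Ddit3 has 2 rows in the deposited table, and the gene ID with the longer exons (1713 bases, against 105) was used. The code of the edgeR and DESeq2 fits was run on simulated counts, and the other code was not. All members were named, and from each list up to 4 genes called in either line's hypoxia comparison and up to 3 per other comparison, by the largest log2 change. In normoxia, samples of the 2 lines with the same number deviated together (r = 0.38, 0.50 and 0.36 across genes), a pairing that comes from the data alone, and the block left 0 members called there.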

Additional observations from a re-analysis of the deposited data

Results flagged for a closer look

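No BCL2 family member met a criterion for a closer look. Among the genes of the pathway lists, the response to hypoxia differed between the lines by the interaction test for Casp6 (1.1 ± 0.20, adjusted p 0.017), Casp8 (-0.79 ± 0.17, adjusted p 0.033), Ddit3 (1.83 ± 0.40, adjusted p 0.037) and Vegfa (1.57 ± 0.32, adjusted p 0.028), all from edgeR with all 12 samples. In the same fit 3.36% of all genes were called. Casp6 was at 18.1 to 27.5 CPM in wild-type normoxia, 44.7 to 47.2 CPM in wild-type hypoxia, 18.6 to 19.3 CPM in ΔN-VEGF normoxia and 75 to 80.1 CPM in ΔN-VEGF hypoxia. Casp8 was at 15.9 to 19.7, 14 to 16.8, 18 to 19.7 and 9.24 to 10.6 CPM in the same order. The call of Casp6 was lost without wild-type hypoxia replicate 1 or 3, ΔN-VEGF normoxia replicate 1 or 3, or any ΔN-VEGF hypoxia library (adjusted p 0.056 to 0.061), and with total counts (0.95, adjusted p 0.05). The call of Casp8 was lost without 9 of the 12 libraries, the exceptions being wild-type normoxia replicate 2, wild-type hypoxia replicate 2 and ΔN-VEGF normoxia replicate 2 (adjusted p 0.064 to 0.11 where lost). That of Ddit3 was lost without any library other than wild-type normoxia replicate 2 (adjusted p 0.056 to 0.11; without that one the value was 2.16, adjusted p 1e-07) and with total counts (1.69, adjusted p 0.053). That of Vegfa was lost without any library other than replicate 2 of either normoxia group (adjusted p 0.064 to 0.089).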

How the results depend on the processing

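For the 9 tested members, 756 alternative values were computed over the 5 comparisons: 648 kept direction and side of the threshold, 66 gained a call, 32 lost one and 10 changed sign, none of these called. The sign changes were Bcl2 between the lines in normoxia (-0.03 with total counts, -0.01 with at least 10 counts in every sample, -0.04 to 0.12 with each replicate left out), Bcl2l1 (-0.03 to 0.51) and Bak1 (-0.08 to 0.56) there with each replicate left out, and Bid between the lines in hypoxia (-0.13 with total counts, -0.04 to 0.24 with each replicate left out). Of 926 values for the named list genes, 774 kept both, 3 gained a call, 147 lost one and 2 changed sign, both for Birc5 in wild-type hypoxia (-1.39 to 0.34 with each replicate left out, and 0.34 without normoxia replicate 2 of both lines).

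Counts of members are given with the share of all genes called in the same fit, which often, but not always, moved with them. Between the lines in hypoxia, total counts took the members from 3 to 2 and the share from 20.1% to 26.8%. In wild-type hypoxia the 4 members (36.5% of genes) became 1 in the 6 samples with a replicate block (13.3%) and 8 without normoxia replicate 2 of both lines (65.3%), and were 4 to 8 with each wild-type replicate left out (26.8% to 54%). In ΔN-VEGF hypoxia the 7 (53.3%) stayed between 5 and 8 under every alternative run (5 with a fold of at least 2, 27.2%, and without ΔN-VEGF normoxia replicate 2, 47.1%; 8 among others with no filter, 25.3%, and without normoxia replicate 2 of both lines, 71.4%). Between the lines in normoxia the 0 (4.36%) became 1 with DESeq2 (8.16%) and 7 without normoxia replicate 2 of both lines (53.6%), and was 0 to 7 with each normoxia replicate left out (1.1% to 48.9%). Between the lines in hypoxia the 3 (20.1%) became 0 with a fold of at least 2 (6.81%), 8 in the 6 samples (57%), 8 in these with the block (61.1%) and 8 without normoxia replicate 2 of both lines (55.8%). There the count was 0 to 1 with each hypoxia replicate left out (10.1% to 13.7%), and 1 to 5 with each normoxia replicate left out (16.3% to 42.4%), though those libraries are in neither group compared. In the interaction the 0 (3.36%) became 2 with total counts (6.13%), 2 with DESeq2 (10.3%) and 7 without normoxia replicate 2 of both lines (52.8%), and was 0 to 7 with each replicate left out (0.493% to 44.4%). The 6-sample fits cannot give it. The cause was not tested.

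The replicate block on all 12 samples gave 4, 8, 0, 4 and 0 called members in the 5 comparisons (38.6%, 55.5%, 4.37%, 22% and 3.29% of genes). Apart from normoxia, same-numbered samples correlated at -0.02 to 0.11 across genes. The labels do not say whether they were cultured or prepared together, and low correlations cannot decide this. Pmaip1 had 1 read in all, and Bcl2 in hypoxic ΔN-VEGF cells rests on 200 counts over 3 samples.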
